A study of Mus musculus with 15 samples.

Results

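The glucocorticoid response and metallothionein genes were followed here as 10 named genes of the 54232 in the deposited count table of the developing mouse secondary palate. They are the receptor gene Nr3c1, the hormone-converting enzyme genes Hsd11b1 and Hsd11b2, the hormone-responsive genes Fkbp5, Tsc22d3, Zbtb16, Sgk1 and Klf9, and the metallothionein genes Mt1 and Mt2. All 10 passed the filter on low counts that left 22151 genes for testing. The palates came from wild-type (WT) mice at E13.5, E14.5, E15.5 and E16.5 (embryonic days) and at P0 (the day of birth), with 3 libraries of bulk RNA per stage and no treatment named in the labels. Each library was made from a pool of palates of 3 embryos, the replicate is therefore the pool, and the labels do not say whether pools shared a litter. Levels are in CPM, counts scaled to equal library totals adjusted by the trimmed mean of M values. Changes are log2 fold changes, later minus earlier stage, from edgeR's quasi-likelihood test over all 15 libraries, with p values adjusted by Benjamini-Hochberg over the 22151 genes and a threshold of 0.05.

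Glucocorticoids are steroid hormones of the adrenal cortex that rise before birth and prepare fetal tissues for life outside the uterus, and excess glucocorticoid in pregnancy is a classical cause of cleft palate in mice. The hormone binds the receptor encoded by Nr3c1, which is held in the cytoplasm by heat shock chaperones and then moves to the nucleus to act on target genes through an imperfect palindrome called the glucocorticoid response element. Whether active hormone reaches the receptor is set within the cell by the enzyme of Hsd11b1, which regenerates active glucocorticoid, and that of Hsd11b2, which inactivates it. Metallothioneins are small cysteine-rich proteins that bind zinc and copper, and their genes respond both to glucocorticoids and to metals, the latter through metal response elements bound by the zinc-sensing factor Mtf1.

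Stretches of DNA before a listed transcription start of Mt1, Mt2 and Sgk1 are shown because matches to those elements were repeated or rare among all promoters searched. The sequences are from RefSeq on GRCm38.p6, whose table held a promoter for 7 of the 10 genes (all but Nr3c1, Zbtb16 and Hsd11b2). Each is the plus strand and the strand of the gene, 5′ to 3′, and covers the 250 bases before a start. Capitals in Mt1 (chr8:94178839-94179088) and Mt2 (chr8:94172368-94172617) mark matches on either strand to TGCACNC or TGCGCNC, the core of the metal response element. Capitals in Sgk1 (chr10:21993640-21993889, before the fifth of 6 listed starts) mark the match to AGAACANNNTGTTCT, the full palindrome of the glucocorticoid response element.
Mt1: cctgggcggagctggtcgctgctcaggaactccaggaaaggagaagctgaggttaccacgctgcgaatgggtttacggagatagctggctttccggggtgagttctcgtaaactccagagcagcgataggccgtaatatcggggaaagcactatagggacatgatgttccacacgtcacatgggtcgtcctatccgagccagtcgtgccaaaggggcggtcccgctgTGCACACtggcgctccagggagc
Mt2: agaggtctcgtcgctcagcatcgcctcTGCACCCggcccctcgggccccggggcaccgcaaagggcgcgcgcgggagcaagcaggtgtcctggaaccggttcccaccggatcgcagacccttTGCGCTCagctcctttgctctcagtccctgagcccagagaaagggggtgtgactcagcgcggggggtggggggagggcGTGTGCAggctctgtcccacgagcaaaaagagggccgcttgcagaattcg
Sgk1: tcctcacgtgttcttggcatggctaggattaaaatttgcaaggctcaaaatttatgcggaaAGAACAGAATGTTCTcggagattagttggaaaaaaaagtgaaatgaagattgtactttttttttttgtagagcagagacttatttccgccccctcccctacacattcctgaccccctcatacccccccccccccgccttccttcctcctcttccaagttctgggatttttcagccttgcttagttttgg

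The search covered 300 bases, of which 50 lie after the start and are not printed. Of 32851 promoters of that length, 25.7% held at least 1 metal response core, 1.97% at least 3 and 0.517% at least 4. Mt2 held 4 matches, beginning at bases -223, -128, -50 and 5 relative to its listed start, and Mt1 held 3, at -23, 3 and 21. Each of these genes had 1 listed start, and matches outside the 300 bases were not counted. Of the printed Mt1 bases, 7 lie in an annotated GENCODE M21 exon, so transcription is annotated from before its listed start. Which start the palate uses was not tested. Mt3 and Mt4, their neighbours on chromosome 8, held 1 each. The full palindrome occurred in 3 promoters (0.00913%), and 1 of the 6 windows searched for Sgk1 was among them. The looser form GNACANNNTGTNC, which overlaps the full palindrome, occurred in 0.475% of promoters, among them those of Sgk1 (at -188) and Mt1 (at -94). Hsd11b1 held 1 metal response core, at -237, and the window of the last listed Sgk1 start held 1, at 12. The windows of Fkbp5, Tsc22d3 and Klf9 held none of these letters. A match is a description of the sequence, and no binding was measured.

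Library totals ranged from 21.5 to 69.0 M counts and were lower at E16.5 and P0, so that 3 counts corresponded to 0.0435 CPM in the deepest and 0.140 CPM in the shallowest library. The label was checked against 9 palate mesenchyme markers, all detected, whose summed level was 615 to 1015 CPM at E13.5 and 261 to 368 CPM at P0. Some libraries stood apart. E16.5 replicate 1 and P0 replicate 2 carried pituitary markers at 1483 and 3022 summed CPM, against 7.90 to 84.9 CPM in the other E16.5 and P0 libraries. The same 2 libraries carried 6 adipocyte markers at 1640 and 2206 CPM, with P0 replicate 1 at 515 CPM and the other 3 between 42.9 and 57.2 CPM, and these 2 are called the marked libraries below. Growth hormone (Gh), a pituitary hormone, reached 1204 CPM in E16.5 replicate 1 and 2689 CPM in P0 replicate 2. In the counts of 4 Y-linked genes, all 3 E16.5 pools (7 to 12 counts), P0 replicate 2 (15), E13.5 replicate 1 (28) and E15.5 replicate 1 (20) were near 0, and the other 9 libraries held 2976 to 12808. No E16.5 pool with male embryos was therefore at hand for a comparison within pools of 1 kind, and values with the Y-linked level as a covariate are given with the birth step. Liver markers were near 0 in every library, at 0.784 to 2.28 summed CPM. In bulk tissue, fewer cells of a type and less RNA per cell cannot be told apart, which applies to every value that follows.

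Over the 5 stages, 9 of the 10 genes changed by edgeR's test, where 59.1% of all genes tested did, and Nr3c1 did not pass (adjusted p = 0.107). The 5 hormone-responsive genes were all highest at P0, Mt1 and Mt2 were higher at each later stage from E15.5 on, and Hsd11b1 and Hsd11b2 went in opposite directions. E14.5 against E13.5 gave 0 calls among the 10 by edgeR, where 0.00903% of all genes passed. At an unadjusted edgeR p under 0.05 it gave 0 of the 10, where 3538 of the 22151 genes passed. DESeq2 also called 0 of the 10, where it called 1000 of the 22151 genes. In the steps between neighbouring stages, Mt1, Mt2 and Hsd11b2 passed at E15.5, Tsc22d3 at E16.5, and Fkbp5, Tsc22d3, Sgk1 and Klf9 at P0. Zbtb16 and Hsd11b1 passed only over longer intervals.

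**Figure D1:**
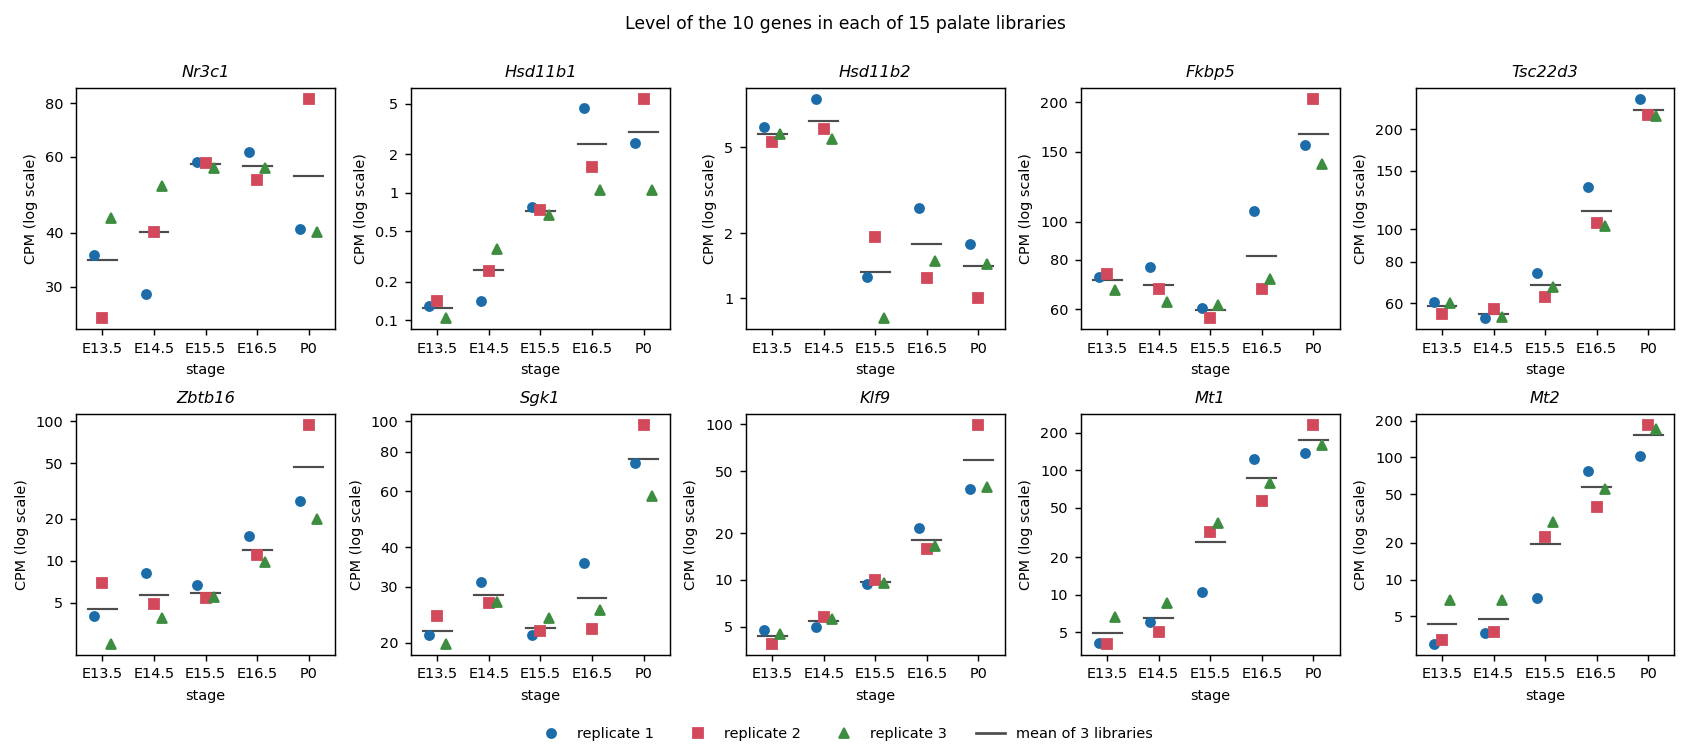
Level of each of the 10 genes in CPM (log axis) by stage, 1 point per library with the symbol giving its replicate number and a bar at the mean of 3 libraries. Tsc22d3 at P0 lies at 219 to 246 CPM, above the 102 to 134 CPM of E16.5, while Hsd11b2 drops from 5.48 to 8.33 CPM at E14.5 to 0.810 to 1.92 CPM at E15.5.

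Nr3c1 (chr18:39410545-39491301, minus strand, GRCm38) encodes the glucocorticoid receptor and is the gene of the 10 that did not pass over the 5 stages. It measured 35.4, 25.4 and 43.2 CPM at E13.5 and 28.8, 40.2 and 51.3 CPM at E14.5, and 58.4, 58.0 and 56.6 CPM at E15.5. At E16.5 it was 61.6, 53.0 and 56.6 CPM, and at P0 40.7, 81.7 and 40.2 CPM. The E15.5 libraries lay above all 6 earlier ones, and at P0 replicate 2 lay above all others of the series while replicates 1 and 3 lay within the range of E13.5 and E14.5. P0 against E13.5 was 0.65 ± 0.28 (standard error; edgeR adjusted p = 0.0660) and P0 against E16.5 was -0.07 ± 0.28 (adjusted p = 0.943). P0 against E13.5 was 0.25 (adjusted p = 0.411) without P0 replicate 2 and passed in 3 of 15 fits that left out a library, those without E13.5 replicate 3, P0 replicate 1 or P0 replicate 3. With E16.5 replicate 1 and P0 replicate 2 both left out, Nr3c1 passed over the 5 stages (edgeR adjusted p = 0.0466), and P0 against E16.5 became -0.45 (adjusted p = 0.417).

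Hsd11b1 (chr1:193221634-193264075, minus strand) encodes 11-beta-hydroxysteroid dehydrogenase type 1, which regenerates active glucocorticoid from its inert form. At E13.5 it rested on 9, 10 and 7 counts, or 0.129, 0.141 and 0.104 CPM, and at E14.5 it was 0.140, 0.242 and 0.365 CPM. It then measured 0.775, 0.730 and 0.665 CPM at E15.5, 4.60, 1.60 and 1.05 CPM at E16.5 and 2.47, 5.43 and 1.04 CPM at P0. Every P0 library lay above every E15.5 library, but P0 and E16.5 overlapped, and the high values were those of E16.5 replicate 1 and P0 replicate 2. Hsd11b1 rose from E13.5 to P0 by 4.56 ± 0.69 (adjusted p = 0.000166), and by 3.83 (adjusted p = 9.17e-05) without those 2 libraries. P0 against E15.5 was 2.05 ± 0.60 (adjusted p = 0.0294). Without P0 replicate 2 that change was 1.26 (adjusted p = 0.153). The call was also lost without any 1 of the E15.5 libraries and with only the 6 libraries of the comparison (adjusted p = 0.0740). Among 11856 genes with a mean of at least 10 CPM, the gene most like Hsd11b1 in pattern over the 15 libraries was Fabp4 (Pearson r = 0.988). The next was Cox8b (r = 0.986). Fabp4 encodes a fatty acid carrier of adipocytes and is itself on the adipocyte list. Fabp4 measured 1211 CPM in E16.5 replicate 1 and 1805 CPM in P0 replicate 2 against 39.3 to 53.9 CPM in E16.5 replicates 2 and 3. In P0 replicate 1, where Hsd11b1 was 2.47 CPM, Fabp4 was 431 CPM, and in P0 replicate 3 it was 49.2 CPM. The fit without E16.5 replicate 1 and P0 replicate 2 keeps P0 replicate 1, so it does not leave out all libraries with high Fabp4. The part of adipocyte RNA in the late level of Hsd11b1 was not tested.

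Hsd11b2 (chr8:105518755-105523988, plus strand) encodes the type 2 enzyme, which inactivates glucocorticoid and is known for shielding fetal tissue and placenta from maternal hormone. It was 6.21, 5.27 and 5.75 CPM at E13.5 and 8.33, 6.08 and 5.48 CPM at E14.5. From E15.5 on it was low, at 1.25, 1.92 and 0.810 CPM, then 2.61, 1.24 and 1.49 CPM at E16.5 and 1.78, 1.01 and 1.44 CPM at P0. Every library of the first 2 stages lay above every later library. The genes most like Hsd11b2 in pattern were Stx6 (r = 0.932) and Gtf3c6 (r = 0.929). The fall came in the step to E15.5, at -2.32 ± 0.36 (adjusted p = 0.00156), which passed in all 15 fits that left out a library, and P0 against E13.5 was -2.03 ± 0.36 (adjusted p = 0.000534). Markers of choroid plexus and brain summed to 314 to 569 CPM at E13.5, to 2254, 715 and 1195 CPM at E14.5 and to 275 to 527 CPM at E15.5. In the step to E15.5, where 13.4% of all genes passed as lower, 2 of those 8 markers did. In the same step 7 of 8 osteoblast markers and 7 of 9 skeletal muscle markers passed as higher and 0 as lower, where 12.7% of all genes passed as higher. The part of these tissues in the fall of Hsd11b2, or in the changes of Mt1 and Mt2 in that step, was not tested.

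Within a library, the ratio of Hsd11b1 to Hsd11b2 counts does not depend on the library total. It was 0.0181 to 0.0267 at E13.5, 0.0168 to 0.0667 at E14.5, 0.380 to 0.821 at E15.5, 0.705 to 1.76 at E16.5 and 0.727 to 5.39 at P0. The ranges of E14.5 and E15.5 did not overlap, and those of E15.5, E16.5 and P0 did. Per kilobase of exon the ratio ran from 0.00783 to 0.0116 at E13.5 to 0.315 to 2.33 at P0, and on this scale P0 replicate 2 was the only library above 1. On the length of the first listed transcripts the ratio reached 2.00 at E16.5 and 6.12 at P0, so which enzyme gene stood higher per length depends on the length used.

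**Figure D2:**
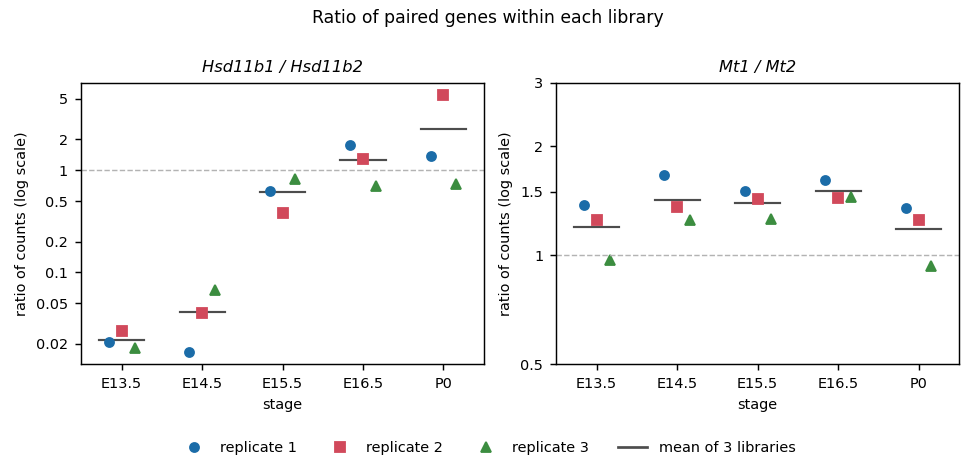
Ratio of counts of Hsd11b1 to Hsd11b2 (left) and of Mt1 to Mt2 (right) in each library, by stage, on log axes with a bar at the mean of 3 libraries and a dashed line at a ratio of 1. The left ratio is at most 0.0667 up to E14.5 and at least 0.380 from E15.5, while the right ratio stays between 0.936 and 1.66 in all 15 libraries.

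Among the hormone-responsive genes, Tsc22d3 (chrX:140539528-140600659, minus strand) encodes GILZ, a leucine zipper protein that mediates anti-inflammatory actions of glucocorticoid. It measured 60.6, 55.5 and 60.1 CPM at E13.5, 54.2, 57.7 and 54.6 CPM at E14.5 and 74.1, 62.6 and 67.3 CPM at E15.5. It then stood at 134, 105 and 102 CPM at E16.5 and 246, 222 and 219 CPM at P0. From E14.5 on no 2 neighbouring stages overlapped, and replicate spread was small throughout. Tsc22d3 rose by 0.74 ± 0.12 from E15.5 to E16.5 (adjusted p = 0.0224) and by 1.01 ± 0.12 from E16.5 to P0 (adjusted p = 0.00415). The second rise passed in all 15 fits that left out a library, and without E16.5 replicate 1 and P0 replicate 2 it was 1.16 (adjusted p = 0.00855). The first was 0.59 (adjusted p = 0.0475) without both and lost its call without E16.5 replicate 1 alone (adjusted p = 0.0657) or without E15.5 replicate 2 or 3 (up to 0.133).

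Fkbp5 (chr17:28399095-28517524, minus strand) encodes a co-chaperone that lowers the receptor's affinity for hormone and is itself induced by it. It was 72.5, 73.8 and 67.1 CPM at E13.5, 76.9, 67.4 and 62.7 CPM at E14.5 and 60.4, 57.1 and 61.5 CPM at E15.5. At E16.5 it was 106, 67.6 and 71.5 CPM and at P0 156, 204 and 140 CPM. The P0 libraries lay above all earlier ones, and E16.5 replicate 1 lay above the other embryonic libraries. P0 against E16.5 was 1.03 ± 0.18 (adjusted p = 0.0338), but only 2 of 15 fits that left out a library kept the call, those without E16.5 replicate 1 or P0 replicate 3, and the others gave adjusted p up to 0.179. Without both marked libraries the rise was 1.08 (adjusted p = 0.00855), and P0 against E13.5 was 1.23 ± 0.18 (adjusted p = 0.000111). The genes most like Fkbp5 in pattern were Txnrd3 (r = 0.976) and Xpa (r = 0.976).

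Sgk1 (chr10:21882184-21999903, plus strand), whose palindrome is printed above, encodes a kinase that acts on ion channels and transporters. It measured 21.2, 24.3 and 19.8 CPM at E13.5, 31.0, 26.6 and 26.9 CPM at E14.5 and 21.2, 21.7 and 24.0 CPM at E15.5. At E16.5 it was 35.6, 22.1 and 25.2 CPM, and at P0 73.6, 97.2 and 58.0 CPM. No embryonic library reached the lowest P0 library. P0 against E16.5 was 1.46 ± 0.20 (adjusted p = 0.0115), and 1.46 (adjusted p = 0.00925) without both marked libraries. The call was lost without E16.5 replicate 2 or 3, with adjusted p up to 0.112, and P0 against E13.5 was 1.81 ± 0.20 (adjusted p = 2.28e-05). The genes most like Sgk1 in pattern were Dusp1 (r = 0.968) and Fkbp5 (r = 0.968).

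Klf9 (chr19:23141226-23166911, plus strand) encodes a zinc finger transcription factor induced by glucocorticoid and thyroid hormone. It was 4.77, 3.87 and 4.50 CPM at E13.5, 4.98, 5.75 and 5.59 CPM at E14.5 and 9.47, 9.99 and 9.55 CPM at E15.5. It continued at 21.7, 15.7 and 16.4 CPM at E16.5 and 38.3, 98.9 and 39.4 CPM at P0. Each stage lay wholly above the one before it, and P0 replicate 2 lay 2.55-fold above the mean of replicates 1 and 3. P0 against E13.5 was 3.75 ± 0.33 (adjusted p = 5.62e-06), or 3.17 (adjusted p = 3.16e-06) without both marked libraries. P0 against E16.5 was 1.71 ± 0.31 (adjusted p = 0.0383), or 1.26 (adjusted p = 0.0127) without both, and 4 of 15 fits that left out 1 library kept the call. These were the fits without E16.5 replicate 1 or any P0 library, and the other fits gave adjusted p up to 0.209.

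Zbtb16 (chr9:48654297-48836222, minus strand) encodes PLZF, a transcriptional repressor strongly induced by glucocorticoid. It measured 4.01, 6.92 and 2.54 CPM at E13.5, 8.13, 4.90 and 3.90 CPM at E14.5 and 6.71, 5.40 and 5.51 CPM at E15.5. It was 15.2, 10.96 and 9.84 CPM at E16.5 and 26.6, 93.5 and 19.9 CPM at P0. The first 3 stages overlapped, and E16.5 and P0 each lay above all earlier libraries. P0 replicate 2 lay 4.02-fold above the mean of replicates 1 and 3, the widest gap of the 10 genes. P0 against E16.5 was 1.96 ± 0.54 and did not pass (adjusted p = 0.158). P0 against E15.5 was 2.99 ± 0.56 (adjusted p = 0.00448), or 1.96 (adjusted p = 0.00679) without both marked libraries. The genes most like Zbtb16 in pattern were Mafk (r = 0.970) and Pex16 (r = 0.963).

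Mt1 (chr8:94179082-94180327, plus strand) had, with Mt2, the largest fitted change of the 10 genes from E13.5 to P0. It was 4.08, 4.01 and 6.60 CPM at E13.5, 6.01, 5.04 and 8.50 CPM at E14.5 and 10.5, 31.9 and 37.6 CPM at E15.5. It reached 124, 56.5 and 79.6 CPM at E16.5 and 139, 231 and 159 CPM at P0. From E14.5 on each stage lay wholly above the one before. Mt1 rose by 2.03 ± 0.44 from E14.5 to E15.5 (adjusted p = 0.00692), a call that all 15 fits leaving out a library kept, and by 5.17 ± 0.50 from E13.5 to P0 (adjusted p = 9.73e-06). The steps to E16.5 (1.70 ± 0.43, adjusted p = 0.0684) and to P0 (1.02 ± 0.42, adjusted p = 0.369) did not pass.

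Mt2 (chr8:94172664-94173568, plus strand) lies beside Mt1 and was 2.97, 3.21 and 6.79 CPM at E13.5, 3.61, 3.71 and 6.80 CPM at E14.5 and 6.995, 22.3 and 29.8 CPM at E15.5. It reached 77.0, 39.2 and 54.8 CPM at E16.5 and 103, 184 and 170 CPM at P0. The order of stages was that of Mt1, with E15.5 replicate 1 the low library of its stage for both genes. Mt2 rose by 2.07 ± 0.51 from E14.5 to E15.5 (adjusted p = 0.0121), a call lost without E14.5 replicate 1 or 2 or E15.5 replicate 3 (adjusted p up to 0.0637), and by 5.14 ± 0.58 from E13.5 to P0 (adjusted p = 2.20e-05). Over the 15 libraries the pair correlated at r = 0.994, and each was the gene most like the other, followed by Ifitm1, an interferon-inducible membrane protein gene. The ratio of Mt1 to Mt2 counts lay between 0.936 and 1.66 in every library. Without both marked libraries P0 against E13.5 was 4.95 (adjusted p = 3.98e-05) for Mt1 and 5.01 (adjusted p = 0.000116) for Mt2.

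Per kilobase of exon, the order of levels changed over development. At E13.5 Tsc22d3 led at 13.5 ± 0.642 CPM per kilobase (SD, n = 3), above Fkbp5 at 11.2 ± 0.559 with no overlap, while Mt2, Nr3c1, Sgk1, Mt1 and Hsd11b2 followed between 7.35 and 3.12 with each overlapping the next. Klf9 and Zbtb16 came next, and Hsd11b1 was lowest at 0.0293 ± 0.00443. At P0 Mt2 led at 259 ± 73.5 and overlapped Mt1 at 141 ± 38.7, and Tsc22d3 came next at 52.8 ± 3.49 with no overlap on either side. Fkbp5 (26.2 ± 5.24), Klf9, Sgk1, Zbtb16 and Nr3c1 (7.30 ± 3.20) then followed in an overlapping series, and Hsd11b2 (0.764 ± 0.209) and Hsd11b1 (0.701 ± 0.526) overlapped at the bottom. The exon length of Mt1 in the table, 1246 bases, is that of its whole gene span, while its first listed transcript has 549 bases, against 511 for Mt2. On transcript length Mt1 stood at 321 and Mt2 at 298 CPM per kilobase at P0, so the order of that pair depends on the length used. At P0 the same held for Klf9 (13.1) and Sgk1 (31.0), Zbtb16 (9.13) and Nr3c1 (10.9), and Hsd11b2 (0.764) and Hsd11b1 (1.84). The first listed Klf9 transcript has 4486 bases against 3263 exon bases in the count table, so its 13.1 divides by bases that were not counted. At E13.5 Mt1 (8.92) and Sgk1 (8.86) stood above Mt2 (8.46) and Nr3c1 (6.95) on transcript length.

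By step, the 10 genes gave 2 rises and 1 fall at E15.5 against E14.5, where 26.1% of all genes passed, 12.7% upward and 13.4% downward. The 10 were chosen with earlier results of these data known, so the shares of all genes beside them are a description only. Without both marked libraries that step gave 5 rises and 1 fall, where 30% of all genes passed. E16.5 against E15.5 gave 1 rise against 1.41% of all genes (1.03% upward). P0 against E16.5 gave 4 rises (Fkbp5, Tsc22d3, Sgk1 and Klf9) against 0.352% (0.19% upward). In that last step every P0 library lay above every E16.5 library for 7 of the 10 genes, which 6.23% of all genes did, and the median change of the 10 was 1.02 against 0 for all genes tested. P0 against E15.5 gave 8 rises where 22.9% of all genes passed (12.2% upward), and P0 against E13.5 gave 8 rises and 1 fall where 56.6% did (29.8% upward and 26.8% downward). The last 3 comparisons share their P0 libraries. The medians of the 10 were 1.91 and 2.67 there, against 0.01 and 0.03 for all genes.

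**Figure D3:**
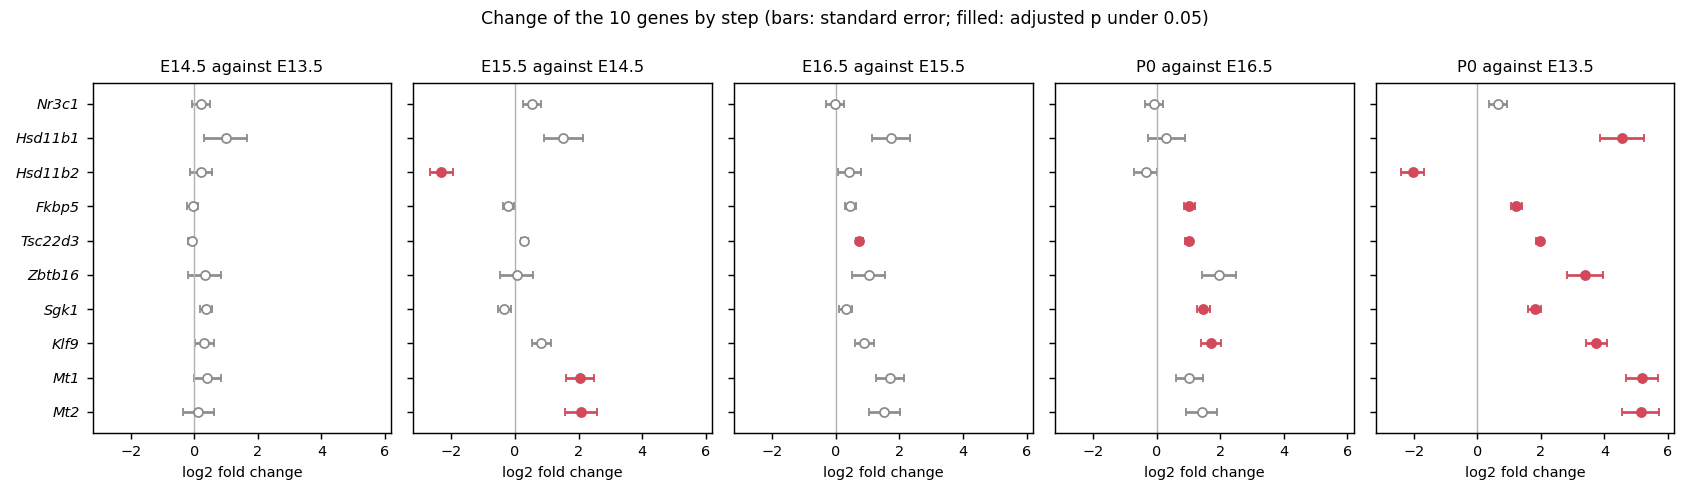
Log2 fold change of each gene with its standard error for the 4 neighbouring steps and for P0 against E13.5, filled where the edgeR adjusted p is under 0.05. No point is filled at E14.5, Mt1, Mt2 and Hsd11b2 are filled at E15.5, only Tsc22d3 at E16.5, and Fkbp5, Tsc22d3, Sgk1 and Klf9 at P0 against E16.5.

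The birth step was examined against the libraries that stood apart. E16.5 replicate 1 was the highest E16.5 library for all 10 genes, and P0 replicate 2 the highest P0 library for 8. The share of all genes highest in these libraries was not counted. Without both, 4 genes passed for P0 against E16.5, where 1.76% of all genes did, and they were again Fkbp5, Tsc22d3, Sgk1 and Klf9. P0 replicates 1 and 3 each lay above all 3 E16.5 libraries for 7 genes: Fkbp5, Tsc22d3, Zbtb16, Sgk1, Klf9, Mt1 and Mt2. These are the 7 for which every P0 library did so, as 6.23% of all genes did. P0 replicate 2, the P0 pool with almost no Y-linked counts as in the E16.5 pools, lay above all E16.5 libraries for 9, all but Hsd11b2. The share of all genes above E16.5 in replicate 2 alone was not counted, so that number describes the 10 genes only. With the Y-linked level as a covariate, Tsc22d3 and Sgk1 kept their calls (adjusted p = 0.0122 and 0.0203), while Fkbp5 (1.09, adjusted p = 0.0647) and Klf9 (1.83, adjusted p = 0.0560) did not, with changes no smaller than without it. When only the 6 libraries of this step were fitted, 0 of the 10 and 0 of all genes passed, with adjusted p of 0.691 for Tsc22d3.

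Immediate early genes, which respond within minutes to handling, stress and many signals, moved in the same step. The 9 on the list summed to 427, 737 and 481 CPM at P0 against 226 to 257 CPM at E16.5 and 131 to 161 CPM at E13.5. Of the 9, 5 passed as higher at P0 than at E16.5, where 0.19% of all genes did. Fos measured 39.4, 99.4 and 44.0 CPM at P0 and 14.96, 11.9 and 14.7 CPM at E16.5. The gene most like Tsc22d3 in pattern was Pik3ip1 (r = 0.978), and Atf3, a stress-induced factor, was the second (r = 0.975). Of 9 skeletal muscle markers, 0 passed in this step by edgeR and 0 had an unadjusted p under 0.05 (median -0.0042), with summed levels spread from 5879 to 33463 CPM over the E16.5 and P0 libraries. The part of immediate early induction, muscle or adipocyte content in the rises of the 10 genes was not tested.

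**Figure D4:**
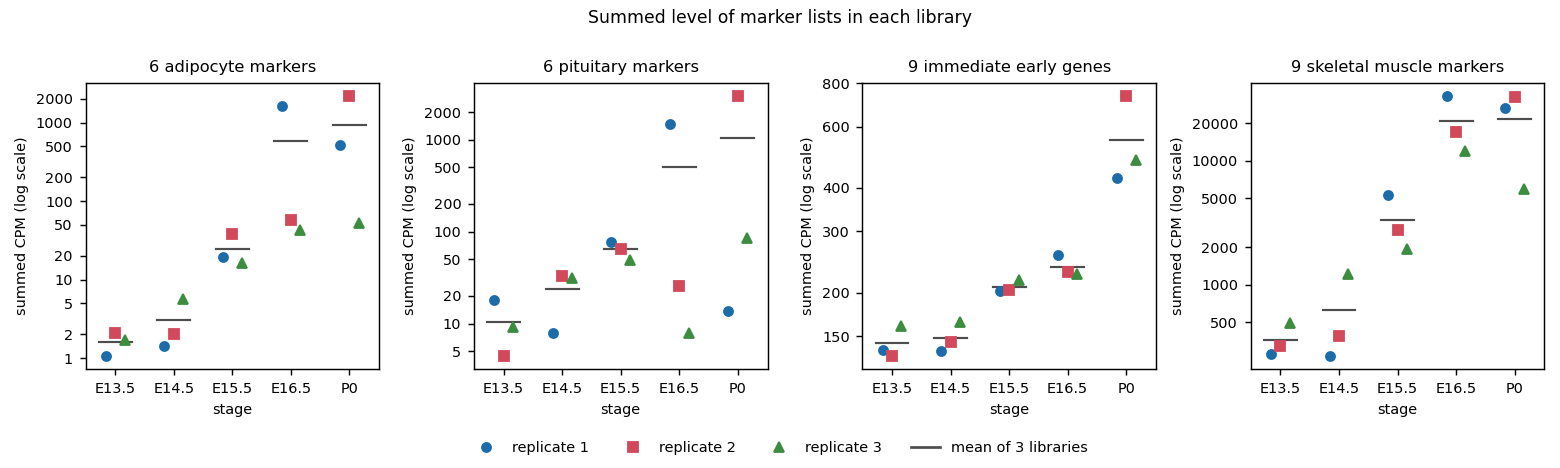
Summed CPM (log axes) of markers of adipocytes, pituitary, immediate early response and skeletal muscle in each library by stage, with a bar at the mean of 3 libraries. E16.5 replicate 1 and P0 replicate 2 stand far above the other libraries of their stages for adipocyte and pituitary markers, and all 3 P0 libraries lie above E16.5 for immediate early genes.

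Other genes of the pathway were taken from a list of 81, of which 78 were tested. The list was chosen with earlier results of these data known, so its counts beside those of all genes are a description only. Among 38 further glucocorticoid-responsive genes, 32 rose and none fell from E13.5 to P0 (median 1.82, against 0.03 for all genes), where 29.8% of all genes rose and 26.8% fell. From E14.5 to E15.5, 14 rose and 2 fell, where 12.7% of all genes rose and 13.4% fell. In P0 against E16.5, where 0.19% of all genes rose, 6 rose and none fell (median 0.92): Per1, Dusp1, Nfkbia, Ddit4, Errfi1 and Sesn1, of which the last 3 were named after their values were seen. The 15 fits that left out a library gave 2 to 7 of the 78 pathway genes in that step. The count was 2 in 7 of them, among these fits without libraries of other stages. Without both marked libraries 8 of the 78 rose and 2 fell, where 118 of all 22840 genes tested rose and 283 fell. Per1, a circadian clock gene with direct glucocorticoid induction, was 199, 212 and 159 CPM at P0 and 100, 86.5 and 72.7 CPM at E16.5, a rise of 1.13 ± 0.13 (adjusted p = 0.00415). Dusp1, a phosphatase that turns off MAP kinases, was 52.3, 105 and 64.1 CPM at P0 and 33.2, 22.6 and 24.0 CPM at E16.5, a rise of 1.47 ± 0.28 (adjusted p = 0.0463). Nfkbia, the inhibitor of NF-kappaB, was 99.3, 166 and 95.4 CPM against 62.9, 53.1 and 55.7 CPM, a rise of 1.07 ± 0.20 (adjusted p = 0.0489). None of these 3 overlapped between the stages. Per1 kept its call in all 15 fits that left out a library, Dusp1 in 2 and Nfkbia in 1, with adjusted p up to 0.211 for both. Cebpd, a transcription factor gene of adipocyte and acute-phase programmes, was 41.4, 53.4 and 33.4 CPM at P0, 22.7, 9.35 and 10.6 CPM at E16.5 and 1.92, 1.49 and 2.67 CPM at E13.5. It rose from E13.5 to P0 by 4.40 ± 0.37 (adjusted p = 4.53e-06), and P0 against E16.5 was 1.59 ± 0.33 (adjusted p = 0.0678). Nfkbia was also the gene most like Klf9 over the 15 libraries (r = 0.986), followed by Txnip (r = 0.981).

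Pck1 and Plin4, also on that list, differed widely between libraries of a stage. Pck1, a gluconeogenic enzyme gene also active in adipocytes, was 100, 637 and 0.871 CPM at P0 and 82.3, 0.304 and 0.710 CPM at E16.5, so it was high in the 3 late libraries with the most adipocyte markers and under 1 CPM in the rest. Plin4, a lipid droplet coat gene, was 106, 7.58 and 7.34 CPM at E16.5 and 51.8, 192 and 16.8 CPM at P0. It passed as higher at E16.5 than at E15.5 (5.79 ± 1.22, adjusted p = 0.0446), the only rise of the pathway list in that step. Without E16.5 replicate 1 its change was 3.34 (adjusted p = 0.159), and its call stood in 4 of 15 fits that left out a library. Cd163, a glucocorticoid-induced receptor of macrophages, rose at E15.5 from 0.108 to 1.64 CPM on average (3.89 ± 0.47, adjusted p = 0.000428). In the same step 4 of 7 macrophage markers rose, where 12.7% of all genes did. Mfsd2a, a lipid transporter of the brain vasculature, fell in that step (-1.64 ± 0.39, adjusted p = 0.0106, and 0.0531 without E14.5 replicate 1).

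Of 9 chaperone and receptor genes, 4 fell and 2 rose from E13.5 to P0 (median -0.18), where 26.8% of all genes fell and 29.8% rose. Of 9 coregulators 6 fell and none rose (median -0.85). Ptges3, encoding the p23 co-chaperone that stabilises the hormone-binding state, was 130, 135 and 137 CPM at E13.5 and 75.2, 73.1 and 77.8 CPM at P0, with no overlap (-0.83 ± 0.14, adjusted p = 0.000317). Ep300, an acetyltransferase coactivator, fell by 1.13 ± 0.22 (adjusted p = 0.00100), and Carm1, a coactivating methyltransferase, fell by 0.63 ± 0.12 from E15.5 to P0 (adjusted p = 0.00504). Nr3c2, the mineralocorticoid receptor that also binds glucocorticoid, was 3.37, 3.00 and 4.62 CPM at E13.5 and 6.82, 12.1 and 3.48 CPM at P0, overlapping ranges with a rise of 1.03 ± 0.35 (adjusted p = 0.0251). Without P0 replicate 2 it was 0.51 (adjusted p = 0.163), and the call was also lost without E13.5 replicate 1 or 2.

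Of the 7 tested genes of steroid synthesis and supply, 4 rose and none fell from E13.5 to P0, where 29.8% of all genes rose. H6pd makes the cofactor that lets the Hsd11b1 enzyme work in the regenerating direction. It was 24.8, 36.0 and 42.8 CPM at E14.5 and 74.4, 61.1 and 56.4 CPM at E15.5, a rise of 0.89 ± 0.27 without overlap (adjusted p = 0.0288). The call was lost without E14.5 replicate 1 or 2 or any E15.5 library, with adjusted p up to 0.133. Hsd11b2 fell in the same step. Akr1c18, a steroid-inactivating reductase gene, rose in the same step from 0.125 to 1.25 CPM on average (3.28 ± 0.76, adjusted p = 0.00917, and 0.0503 without E14.5 replicate 1). Crhr1, a receptor for corticotropin-releasing hormone, fell from 5.63 to 0.942 CPM (-2.58 ± 0.64, adjusted p = 0.0130), a call lost without E14.5 replicate 1 or E15.5 replicate 2 or 3 (adjusted p up to 0.0553). Crhr1 at 7.45 CPM and Mfsd2a at 27.1 CPM were both highest in E14.5 replicate 1, the library with the most choroid plexus and brain markers, and the part of that tissue was not tested.

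Of 15 metal-handling genes, 9 rose and 3 fell from E13.5 to P0 (median 0.93), where 29.8% of all genes rose and 26.8% fell. Mtf1, the factor that binds metal response elements, lay between 18.3 and 30.2 CPM in all 15 libraries (P0 against E13.5 0.10 ± 0.16, adjusted p = 0.608). Slc39a4, the ZIP4 zinc importer, rose in the same step as the metallothioneins: it was 0.530, 0.454 and 0.365 CPM at E14.5 and 2.19, 7.54 and 7.30 CPM at E15.5 (3.65 ± 0.41, adjusted p = 0.000284). As for Mt1 and Mt2, E15.5 replicate 1 was the low library of its stage. That library was also the lowest of its stage in stratified epithelium markers, at 592 summed CPM against 1359 and 2429 CPM, and the part of epithelial content was not tested. Slc39a10, another zinc importer, fell from 126 to 35.8 CPM between E13.5 and P0 (-1.81 ± 0.26, adjusted p = 0.000115), and Slc30a10, a manganese exporter, fell from 10.2 to 3.44 CPM in the step to E15.5 (-1.57 ± 0.34, adjusted p = 0.00743).

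The other metallothionein genes of the cluster were highest in other P0 libraries than Mt1 and Mt2. Mt3, known from brain, was 3.88, 10.8 and 1.10 CPM at E13.5, 21.9, 31.2 and 23.5 CPM at E16.5 and 58.7, 18.7 and 34.5 CPM at P0, and rose from E13.5 to P0 by 2.82 ± 0.68 (adjusted p = 0.00355). Mt4, known from stratified epithelium, had 0 counts in all 6 libraries of E13.5 and E14.5, where 3 counts would be 0.0435 to 0.0471 CPM. It was 0.0674, 0.0745 and 0.202 CPM at E15.5, 0.130, 2.46 and 3.69 CPM at E16.5 and 2.77, 0.335 and 19.1 CPM at P0. For Mt4 the highest P0 library was replicate 3, which also had the most stratified epithelium markers (6420 summed CPM against 1419 and 4405). For Mt3 it was replicate 1, and for Mt1 and Mt2 replicate 2.

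**Figure D5:**
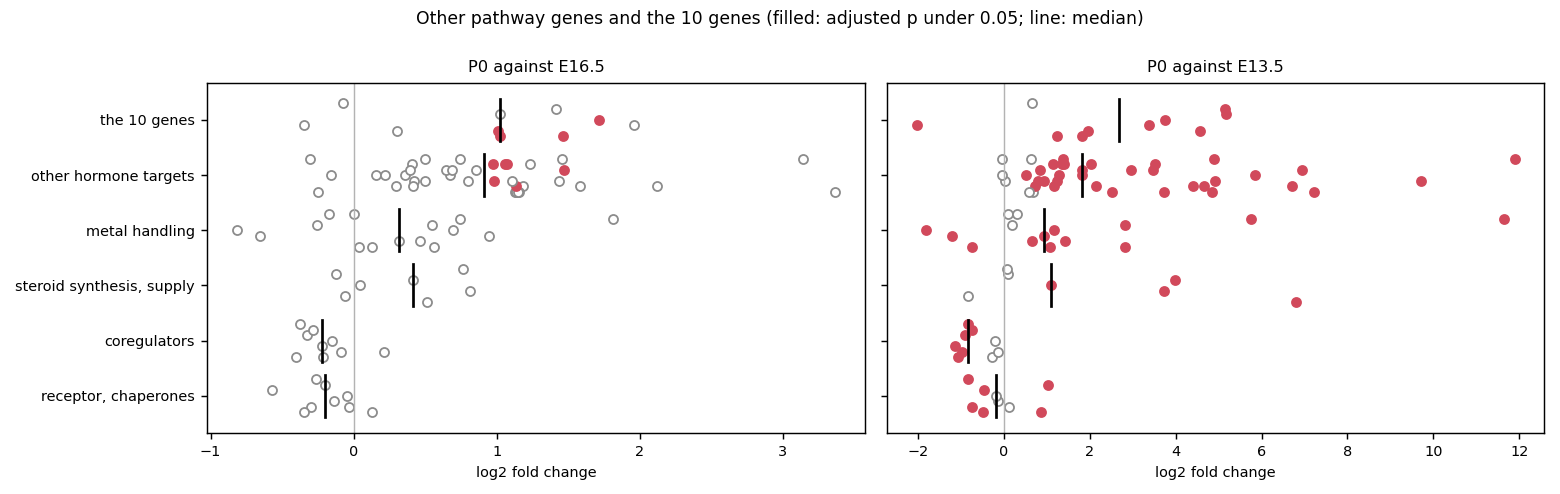
Log2 fold change of the tested pathway genes by role, and of the 10 genes, for P0 against E16.5 (left) and P0 against E13.5 (right), with a line at each median and filled points where the edgeR adjusted p is under 0.05. Hormone targets lie mostly to the right in both panels, with medians of 0.92 and 1.82, while coregulators lie mostly to the left, with medians of -0.22 and -0.85.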

How the data were processed

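The authors deposited whole-number counts per gene, made with featureCounts 2.0.1 per the file headers. Per the submitters' processing notes the tools also included cutadapt 3.4, HISAT2 2.2.1 and SAMtools 1.12, with build mm10 (GRCm38). Positions in the table were checked against GENCODE M21: 97.68% were identical. Symbols came from M21 for 54079 genes, promoters from RefSeq.

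Stages came from the labels. Totals were 21.5 to 69.0 M counts. Genes were filtered with filterByExpr (minimum count 10) and modelled with edgeR 4.0.16 in R 4.3.3 after TMM scaling, with a coefficient for each stage; 6 contrasts and the 5 stages were tested. The standard error is the absolute log2 fold change divided by the root of F. The script was tested on simulated data. Labels do not say that same-numbered libraries are related, so p values measure the spread between pools. Alternatives used DESeq2 1.42.0, other scalings and filters, and left-out libraries. The 10 genes and the lists were chosen with earlier results of these data known. Pathway genes were named where among the 3 largest changes per contrast and direction that passed with a mean of at least 1 CPM, or as close relatives of the 10 (Per1, Dusp1, Cebpd, Nr3c2, H6pd, Mt3, Mt4, Mtf1); like genes are the 2 of highest correlation of log2 CPM. The palate mesenchyme, stratified epithelium, osteoblast, muscle, macrophage, adipocyte, pituitary, brain, liver and immediate early markers were fixed lists.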

Additional observations from a re-analysis of the deposited data

How the results depend on the processing

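Of the 10 genes' 1439 recomputed log2 fold changes, 47 lost a call, 28 gained one and none reversed one, while 23 changed sign with no call in either fit. Leaving out 1 library gave counts of the 10 called of 9 to 10 over the 5 stages, 0 to 0 at E14.5, 2 to 5 at E15.5, 0 to 2 at E16.5, 1 to 4 for P0 against E16.5, 7 to 8 against E15.5 and 9 to 10 against E13.5. For pathway genes the ranges were 58 to 63, 0 to 0, 9 to 27, 0 to 4, 2 to 7, 25 to 44 and 56 to 61, and for all genes 11464 to 13509, 0 to 28, 2320 to 6035, 0 to 969, 10 to 216, 2472 to 6001 and 10668 to 13089.

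For E15.5 against E14.5, 5 of the 10 passed (from 3) with upper-quartile normalization, a mean of at least 1 CPM or DESeq2, and 6 with only the 6 libraries of the contrast or without E16.5 replicate 1 and P0 replicate 2 (chosen after seeing the data, as were the Y-linked covariate and the fits with a left-out library for single pathway genes). Upper-quartile scaling moved the median of all genes from 0.03 to 0.16 there. In that step 26.1% of all genes passed in the main fit and 30% without those 2 libraries. The share of all genes is not given for the other fits, so their counts describe the 10 genes only. For E16.5 against E15.5 the count of 1 became 0 with 6 libraries and 3 with DESeq2, and for P0 against E16.5 the count of 4 became 2 without a filter or with the covariate and 0 with 6 libraries.

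Pathway counts moved to 1 at E14.5 (DESeq2, from 0). At E16.5 they moved from 2 to 1 (upper quartile, no filter), 0 (covariate, both libraries out, 6 libraries) and 9 (DESeq2). For P0 against E16.5 they moved from 6 to 3 (DESeq2 size factors), 2 (no filter, replicate block, covariate), 10 (both libraries out), 0 (6 libraries) and 18 (DESeq2), and for P0 against E15.5 from 40 to 23 (6 libraries).

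All-gene counts at E14.5 moved from 2 to 6 (no filter), 1 (1 CPM), 135 (replicate block), 86 (covariate), 0 (6 libraries) and 1000 (DESeq2). At E16.5 they moved from 312 to 59 (covariate), 50 (both out), 0 (6 libraries) and 2056 (DESeq2). For P0 against E16.5 they moved from 78 to 25 (no filter), 35 (replicate block), 24 (covariate), 401 (both out), 0 (6 libraries) and 667 (DESeq2), and for P0 against E15.5 from 5080 to 1809 (6 libraries). Fewer samples enter the fits with 6 libraries; otherwise the cause was not tested.

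Same-numbered libraries were treated as unpaired in the main fit. Over 30 pairs the correlation of deviations ran from -0.30 to 0.55, with 9 pairs over 0.1. Of 15 libraries, 7 correlated best with their own number. The labels name no batch, and these values do not decide whether same-numbered pools shared one. With the replicate block, Klf9 lost its call for P0 against E16.5 (adjusted p = 0.0748 in edgeR). Depth limits Hsd11b1 most, with 7 to 10 counts at E13.5.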
